A study of Mus musculus with 24 samples.

Results

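The AMPA receptor genes of the mouse hippocampus were followed across 2 genotypes and 2 housing conditions, as 9 of the 49568 gene symbols in each library's count file. The 9 are the rows of a fixed set of symbols and comprise the 4 pore-forming subunits (Gria1, Gria2, Gria3 and Gria4), 3 transmembrane AMPA receptor regulatory proteins or TARPs (Cacng2, Cacng3 and Cacng8) and 2 cornichons (Cnih2 and Cnih3). Polyadenylated RNA of the whole hippocampus was sequenced from male mice on a C57-Bl/6J background, labelled as 12 weeks old. The genotypes were wild type (WT) and MSK1 kinase dead (KD). KD mice carried, on both copies of the endogenous gene, a point mutation that abolishes the activity of the N-terminal kinase of MSK1, a nuclear enzyme switched on by growth factors and stress, and they were bred as a homozygous line apart from the WT line. Mice were kept in standard housing (SH) or, from birth, in an enriched environment (EE) of larger cages with toys, a running wheel and more companions. Of 24 libraries, 22 were used here, 6 from WT SH, 5 from WT EE, 6 from KD SH and 5 from KD EE. The study compared these groups because it asked how experience changes the gene expression and the synapses of the hippocampus, and whether MSK1 is needed for it.

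AMPA receptors are glutamate-gated channels of 4 subunits that carry most fast excitatory transmission in the brain. TARPs and cornichons bind the subunits, help the receptor to reach the synapse and slow its closing. In synaptic scaling, neurons adjust the number of these receptors at all their synapses together, which depends on receptor traffic and protein as well as on mRNA. In whole-tissue RNA, fewer cells of a type and less RNA in each cell cannot be told apart.

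Each subunit is a separate gene. In GRCm38, with the GENCODE M21 annotation, Gria1 (encoding GluA1) lies at chr11:57011387-57330244 on the plus strand, Gria2 (GluA2) at chr3:80681450-80802835 on the minus strand, Gria3 (GluA3) at chrX:41400854-41678601 on the plus strand and Gria4 (GluA4) at chr9:4417896-4796234 on the minus strand. Among the auxiliary genes, Cacng2 (stargazin) lies at chr15:77991748-78120028 (minus), Cacng3 at chr7:122670492-122769393 (plus), Cacng8 at chr7:3390683-3415648 (plus), Cnih2 at chr19:5092868-5098521 (minus) and Cnih3 at chr1:181352628-181460641 (plus).

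The stretch of coding sequence below is shown because it carries the Q/R site, a codon in the channel pore that sets whether the receptor lets calcium through. The genome encodes glutamine there in all 4 genes, and in Gria2 the mRNA is normally edited so that the protein carries arginine. The 60 bases come from exon 11 of the coding transcript of Gria1 (chr11:57243052-57243111), Gria2 (chr3:80706896-80706955) and Gria3 (chrX:41610223-41610282) and from exon 12 of Gria4 (chr9:4464122-4464181). They are written 5′ to 3′ on the coding strand, with the Q/R codon in capitals.
Gria1: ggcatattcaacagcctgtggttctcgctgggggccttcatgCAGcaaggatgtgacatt
Gria2: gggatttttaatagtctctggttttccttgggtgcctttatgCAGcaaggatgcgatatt
Gria3: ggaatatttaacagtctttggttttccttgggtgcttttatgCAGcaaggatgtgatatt
Gria4: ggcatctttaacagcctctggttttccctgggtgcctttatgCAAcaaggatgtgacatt
The codon is number 607 of the Gria2 coding sequence, counted from the start codon. Counts per gene do not show whether a transcript was edited, nor which of the flip and flop exons it held, so a level below sums edited and unedited forms and both splice forms. Within these 60 bases, Gria2 and Gria3 differ at 6 positions and Gria1 and Gria2 at 13. Over the whole aligned coding sequence the 4 subunits are between 68.0% (Gria1 and Gria4) and 72.9% (Gria2 and Gria4) identical, and the longest exact run that a pair shares is 41 bases, in Gria2 and Gria4. The TARPs share 66.6% to 72.3% of their aligned coding bases, and Cnih2 and Cnih3 share 77.1%.

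The 22 libraries held between 8911999 and 56752074 counts on genes, and the smallest count of any of the 9 genes in any of them was 555 (Cacng3 in library 9 of KD EE). All 9 genes were therefore far above a floor of 3 counts in each library. Markers of dentate granule cells and CA1 pyramidal cells were present throughout, at a summed level of 186 to 372 CPM and 570 to 820 CPM (the standard unit of counts relative to a library's total on genes, here with totals scaled by TMM). Genes of neighbouring tissue varied between libraries. The 6 thalamic genes summed to 388 CPM in library 12 of WT SH and to 83.6 to 161 CPM in the other libraries. The 7 striatal genes summed to 222 CPM in library 14 of WT SH, and to 83.8 to 130 CPM elsewhere. The 7 choroid plexus genes summed to 20.1 to 38.85 CPM in 12 libraries and to 92.8 to 544 CPM in the other 10, of which 7 were EE libraries. Libraries 2, 9, 12, 31B and 35A were left out by the study for poor correlation within their group, and values from the other 17 are given for Gria2, Cacng2 and the genes that act on the receptors.

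The order of the 9 genes was read per length of transcript, since a longer transcript yields more fragments. Per kilobase of annotated exon, Cnih2 stood highest at 258 ± 30.7 CPM per kb (SD, n = 22), followed by Gria1 at 169 ± 15.4, Gria2 at 58.8 ± 5.27 and Cacng8 at 51.4 ± 7.24. Below them came Cnih3 (26.6 ± 2.22), Cacng3 (24.9 ± 2.88), Gria3 (22.9 ± 1.72), Cacng2 (12.6 ± 0.680) and Gria4 (12.5 ± 1.14). Cnih2 was above Gria1 in 22 of 22 libraries and Gria1 above Gria2 in 22 of 22. Cacng2 and Gria4 were not apart, with Cacng2 higher in 14 of 22 libraries, and Cacng3 was above Gria3 in 16.

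The distance between Gria1 and Gria2 depends on which length is used. On both scales the count was that of all exons, untranslated parts included. The scale per kilobase of coding sequence is therefore not a measure of coverage of the coding sequence, and it raises genes with long untranslated parts. Gria2 has 15548 bases of annotated exon around a coding sequence of 2649 bases, whereas Gria1 has 6043 around 2721. Per kilobase of coding sequence, Gria1 stood at 375 ± 34.1 and Gria2 at 345 ± 30.9 CPM per kb, with Gria1 higher in 21 of 22 libraries, and Cacng2 and Cacng3 became the pair of neighbours that did not separate (Cacng3 higher in 13 of 22). On both scales Cnih2 was highest and Gria4 lowest by its mean.

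**Figure D1:**
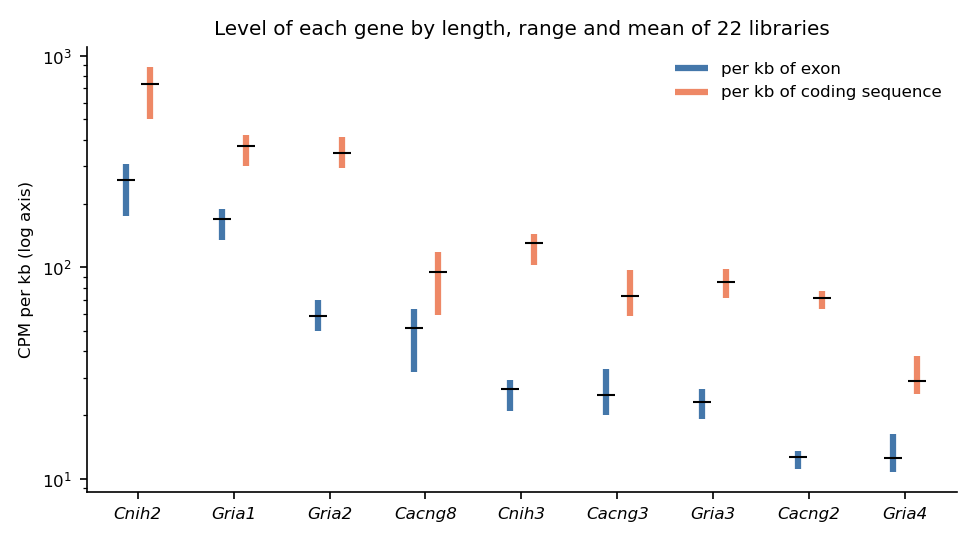
Level of each gene in CPM per kilobase (log axis), per kilobase of annotated exon (blue) and of coding sequence (orange). Both scales divide the count over all exons. Bars span the lowest to the highest of 22 libraries and the black line is the mean. Cnih2 and Gria1 are at the top on both scales, and Gria2 sits at 58.8 CPM per kb of exon but at 345 CPM per kb of coding sequence.

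Subunit levels in the 4 groups overlapped. Gria1, the subunit most tied to activity-dependent insertion of receptors, was at 1059 ± 80.8 CPM (SD, n = 6) in WT SH, 1041 ± 80.1 (n = 5) in WT EE, 998 ± 136 (n = 6) in KD SH and 980 ± 45.4 (n = 5) in KD EE. Its lowest value was 816 CPM, in library 5 of KD SH, and its highest 1144 CPM, in library 13 of WT SH. The spread within KD SH alone was therefore wider than the distance between any pair of group means.

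Gria2, which makes receptors impermeable to calcium once edited, ranged in WT SH from 778 CPM (library 12) through a median of 937 to 1032 CPM. In the 5 WT EE libraries (16, 17, 31B, 33A and 35A) it was at 867, 826, 914, 907 and 898 CPM. In KD SH it ranged from 810 CPM (library 2) through a median of 940 to 1089 CPM (library 5), and in the KD EE libraries 7, 8, 9, 32A and 36A it was at 857, 827, 976, 879 and 825 CPM. Most EE values lay at the low end of the SH range, but the lowest value in each genotype was an SH library, and the groups overlapped.

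Gria3 and Gria4 were expressed at lower levels. Gria3 ranged from 190 CPM (library 2) to 260 CPM (library 5), both in KD SH, and its group means lay between 222 and 230 CPM. Gria4, best known from interneurons and early development, had group means between 76.5 and 81.2 CPM, and its highest value by far, 103 CPM, was again in library 5, against 67.7 to 86.3 CPM in the other 21 libraries.

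Of the TARPs, Cacng2 was the steadiest of the 9 genes. It lay between 61.5 and 74.7 CPM in all 22 libraries, with an SD within groups of 0.0817 on the log2 scale, compared with a median of 0.113 for the 3357 genes in the same range of CPM. Cacng3 had group means of 65.9 (KD EE) to 72.3 CPM (WT SH), and its highest value, 91.4 CPM, was in library 14. Cacng8, the TARP most enriched in the hippocampus, was the most variable over the 22 libraries, with an SD within groups of 0.207. Without library 5 its SD was 0.165, beside 0.169 for Cacng3. In WT SH it ranged from 113 CPM through a median of 128 to 149 CPM, and in KD SH from 75.1 CPM (library 5) through a median of 110 to 139 CPM. The WT EE libraries were at 118, 123, 129, 134 and 129 CPM in the order given for Gria2, and the KD EE libraries at 109, 121, 121, 120 and 113 CPM. The KD SH libraries 1, 2 and 5 (89.8, 98.4 and 75.1 CPM) were below every other library, and KD SH libraries 3, 4 and 6 (132, 122 and 139 CPM) lay within the WT SH range.

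The groups also overlapped for the cornichons, which slow the channel's closing. Cnih2 was at 373 ± 44.9 CPM (SD, n = 6) in WT SH, 342 ± 17.99 (n = 5) in WT EE, 355 ± 58.9 (n = 6) in KD SH and 337 ± 31.6 (n = 5) in KD EE, with library 5 lowest at 240 CPM. Without library 5, Cnih2 was at 378 ± 19.1 CPM (n = 5) in KD SH. Cnih3 had group means of 69.6 (KD SH) to 76.3 CPM (WT SH), and was lowest, at 57.6 CPM, in library 5.

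**Figure D2:**
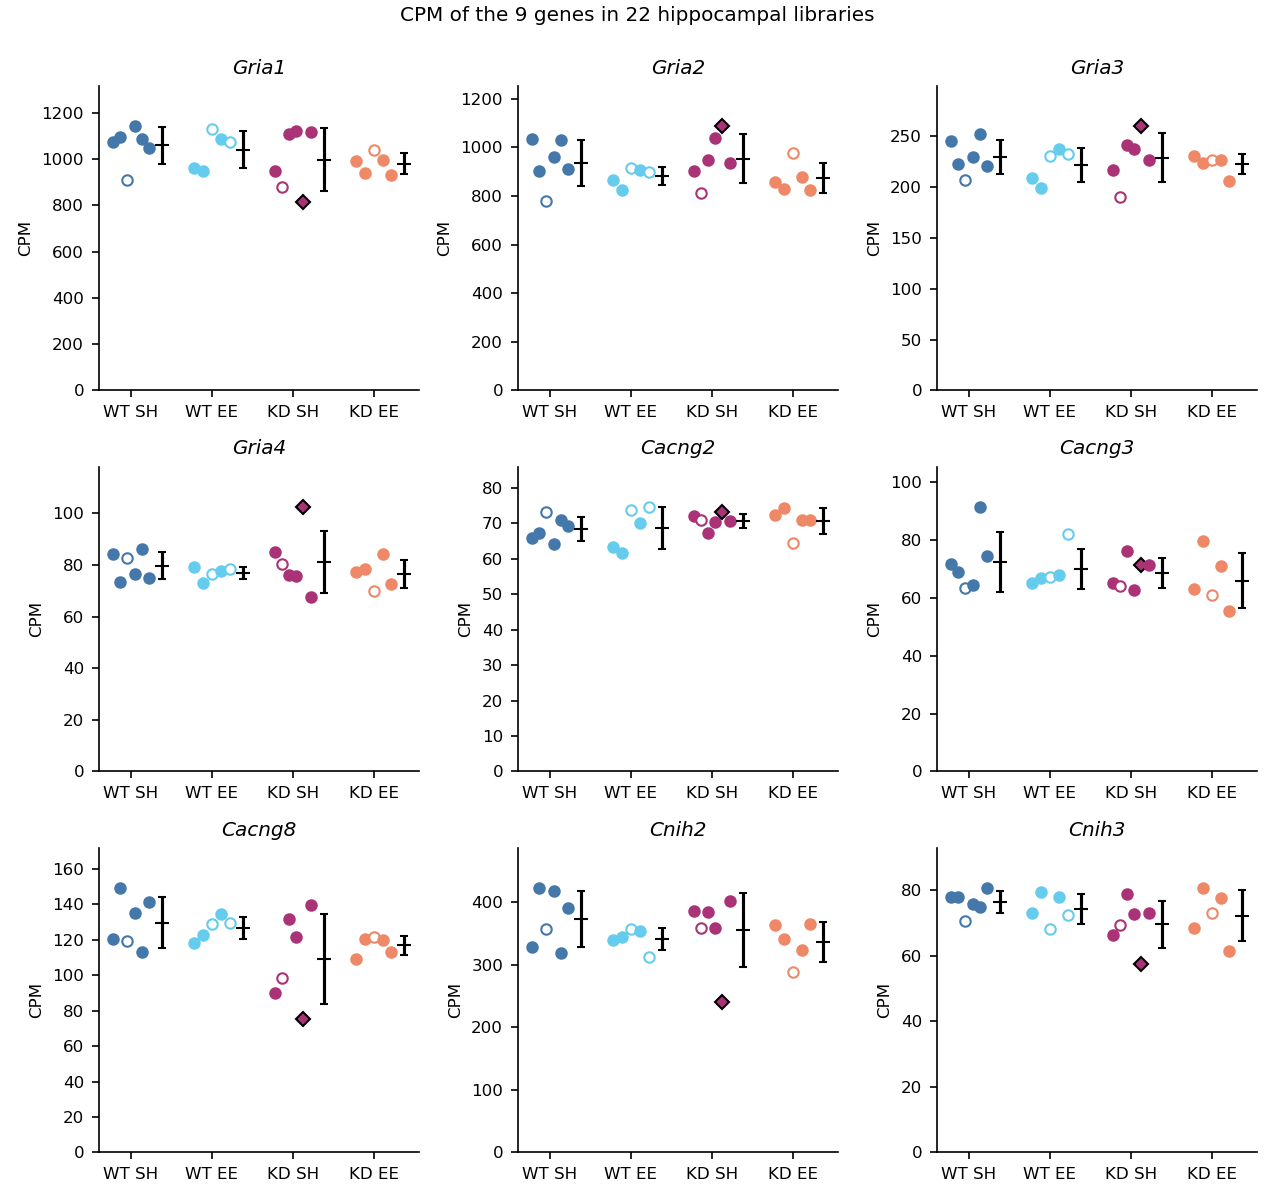
CPM of the 9 genes in each of 22 libraries, by group, on axes that start at 0. Points are libraries, open points are the 5 libraries left out by the study, the black-edged diamond is library 5 of KD SH, and bars are the group mean and SD. The 4 groups overlap for all 9 genes, and library 5 is the highest point for Gria2, Gria3 and Gria4 and the lowest for Gria1, Cacng8, Cnih2 and Cnih3.

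Enrichment in WT mice was tested across 18482 genes. None of the 9 was called (adjusted p of 0.05 or less with a 1.3-fold change or more, edgeR's quasi-likelihood test), where 0% of all genes tested were called, and none had an unadjusted p under 0.05, where 8.65% of all genes did. Of the 9, 8 were lower in WT EE by their fitted value, with a median log2 fold change of -0.05, against 0.01 over all genes tested. The largest was Cnih2 at -0.13 ± 0.10 (SE, adjusted p = 0.791), and Gria2 was at -0.09 ± 0.08 (adjusted p = 0.828), or -0.13 without library 12 of WT SH.

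In KD mice, the same comparison gave 0 of 9 genes called, where 0% of all genes tested were called, and 0 of 9 at an unadjusted p under 0.05, where 9.63% of all genes were. Gria2 had the largest value, at -0.12 ± 0.08 on the log2 scale (adjusted p = 0.628), and Cacng8 was at 0.11 ± 0.11 (adjusted p = 0.778). Without library 5 of KD SH they were at -0.07 and 0.02. Cnih2 was at -0.06 with that library and at -0.15 without it. The median of the 9 was -0.03 against 0.00 over all genes.

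Averaged over the genotypes, EE against SH again called 0 of 9, where 0.146% of all genes tested were called, and 0 of 9 had an unadjusted p under 0.05, where 16.1% of all genes did. Over the 22 libraries, Gria2 had the smallest p of the 9, at a log2 fold change of -0.10 (95% confidence interval -0.21 to 0.01, adjusted p = 0.367). Cnih2 was also at -0.10, and at -0.14 without library 5 of KD SH. Its unadjusted p was then 0.0138 and its adjusted p 0.181 by edgeR, and it was not called. All 4 subunits had negative values, from -0.02 for Gria1 to -0.10 for Gria2, each within an interval that included 0.

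The genotypes were compared within each housing. In SH, 0 of 9 genes were called, where 0% of all genes tested were called, and Cacng8 alone had an unadjusted p under 0.05, where 5.76% of all genes did. Cacng8 was higher in WT SH than in KD SH by 0.25 ± 0.10 on the log2 scale (SE, 95% confidence interval 0.03 to 0.46), which is 1.19-fold, at an unadjusted p of 0.0264 and an adjusted p of 0.811 by edgeR. The value depended on library 5, without which it was 0.16 (interval -0.02 to 0.35, adjusted p = 0.918). Leaving out each library in turn gave 0.16 to 0.33, the latter without KD SH library 6. Cnih3 was at 0.13 ± 0.07 (adjusted p = 0.811) and Gria1 at 0.09 ± 0.08 (adjusted p = 0.887), and without library 5 they were at 0.09 and 0.04.

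In EE, the comparison of WT with KD mice called 0 of 9 genes, where 0% of all genes tested were called, and gave 0 of 9 an unadjusted p under 0.05, where 2.61% of all genes passed it. Cacng8 had the largest value here too, 0.11 ± 0.12, with a 95% confidence interval of -0.13 to 0.34. Averaged over housings, WT against KD called 0 of 9, where 0% of all genes were called. Cacng8 was at 0.18 ± 0.08 (adjusted p = 0.803 by edgeR). It was the only member below the unadjusted threshold, which 6.06% of all genes passed.

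The interaction, which asks whether enrichment acted differently in the 2 genotypes, called 0 of 9 genes, where 0% of all genes tested were called, and gave 0 of 9 an unadjusted p under 0.05, where 2.04% of all genes passed it. Its largest value was that of Cacng8, -0.14 ± 0.16, which ranged from -0.06 without library 5 of KD SH to -0.22 without library 6 of KD SH.

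The intervals bound what could have been missed. In the 4 comparisons within a genotype or a housing, 35 of 36 intervals lay wholly inside a 1.3-fold change in either direction (0.38 on the log2 scale). The exception was Cacng8 in WT SH against KD SH, whose interval reached 0.46. The interval of Cacng2 in WT EE against WT SH was -0.10 to 0.12, but its value moved with the libraries used. Of the EE libraries, 31B, 32A, 33A, 35A and 36A carry a letter whose meaning the labels do not give, and no SH library does. Without these 5, only libraries 16 and 17 remained in WT EE, its lowest for Cacng2 (63.4 and 61.5 CPM), and libraries 7, 8 and 9 in KD EE. Cacng2 was then at -0.13 ± 0.07 in WT EE against WT SH (adjusted p = 0.415) and at -0.19 ± 0.08 in WT EE against KD EE (adjusted p = 0.507), compared with 0.01 and -0.05 in the 22 libraries. None of the 9 genes was called without the lettered libraries. For the interaction, 8 of 9 intervals were inside, and that of Cacng8 reached -0.46.

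**Figure D3:**
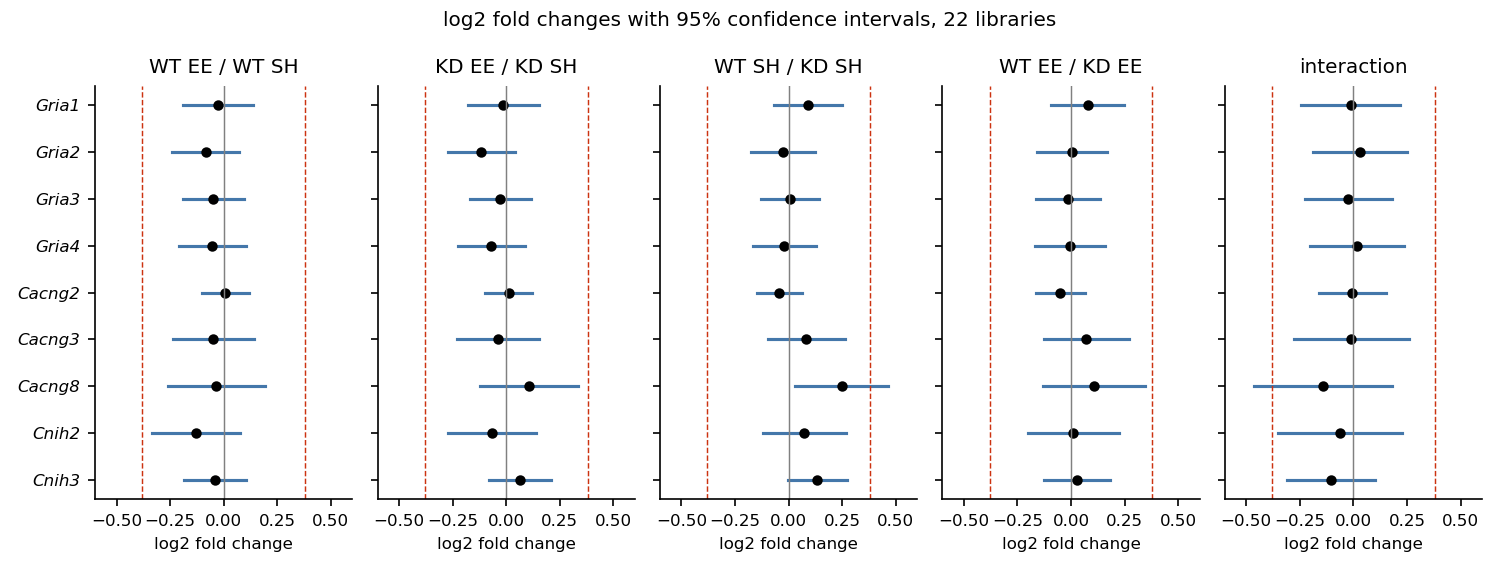
Fitted log2 fold changes (points) with 95% confidence intervals (lines) of the 9 genes in the 4 comparisons and the interaction, from 22 libraries. Dashed lines mark a 1.3-fold change (0.38 on the log2 scale). All intervals include 0 except that of Cacng8 in WT SH against KD SH (0.03 to 0.46).

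None of the 9 genes separated its groups without overlap in any of the 4 comparisons over 22 libraries, where 1.16% of all genes tested did in WT EE against WT SH, 0.557% in KD EE against KD SH, 0.276% in WT SH against KD SH and 0.346% in WT EE against KD EE.

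The choice of libraries moved Gria2. With the 17 libraries of the study, Gria2 was at 968 ± 62.6 CPM (SD, n = 5) in WT SH, 868 ± 42.5 (n = 3) in WT EE, 979 ± 75.1 (n = 5) in KD SH and 849 ± 29.2 (n = 4) in KD EE. Its log2 fold change was -0.16 ± 0.07 for WT EE against WT SH (adjusted p = 0.319) and -0.21 ± 0.07 for KD EE against KD SH (adjusted p = 0.159). It was not called in either, where 3.55% and 1.74% of all genes tested were called. The KD EE libraries (823 to 886 CPM) then lay below all KD SH libraries (896 to 1073 CPM), where 3.05% of genes separated those groups. In WT SH against WT EE, 12.3% of genes separated and no member did, and in WT SH against KD SH 0.996% did and no member did.

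Averaged over the genotypes, Gria2 in the 17 libraries was lower in EE by a log2 fold change of -0.18 (95% confidence interval -0.28 to -0.08), with an adjusted p of 0.0262 by edgeR. It therefore passed the adjusted p, which 5.48% of all genes did, but not the 1.3-fold threshold, and 0 of 9 members were called where 3.85% of all genes were. The 5 libraries that differ between the sets had been left out for how poorly they correlated within their group. Without them the SD of Gria2 was smaller in WT SH, KD SH and KD EE and larger in WT EE (36.3 CPM in the 22 libraries and 42.5 CPM in the 17). Among the 5, SH libraries 2 and 12 held the lowest Gria2 of their groups and EE libraries 9 and 31B the highest of theirs. All 7 EE libraries among the 17 had choroid plexus sums of 96.6 to 544 CPM. The SH libraries had sums of 20.1 to 38.85 CPM in 9 cases and 92.8 CPM in library 11. Housing and choroid plexus level can therefore hardly be told apart in the 17 libraries, and the cause of the Gria2 difference was not tested.

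Cacng2 also moved with the choice of libraries. In the 17 libraries it was lower in WT EE (61.6 to 70.4 CPM) than in KD EE (70.6 to 74.5 CPM), at a log2 fold change of -0.15 ± 0.06 (adjusted p = 0.710), and the groups did not overlap, where 6.48% of genes separated them. In the 22 libraries the value was -0.05 ± 0.06 and the groups overlapped.

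Gria2 moved with the level of choroid plexus genes in the libraries, and so did Gria3 and Gria1. The r of log2 CPM with the choroid plexus score was -0.69 for Gria2, -0.59 for Gria3 and -0.43 for Gria1 (-0.65 without library 5). For the remaining members it lay between -0.38 (Cacng3) and 0.10 (Cnih3). In the 12 libraries with a choroid plexus sum under 50 CPM, Gria2 was between 898 and 1089 CPM (median 954), and in the 10 libraries above it was between 778 and 907 CPM (median 842). Housing and choroid plexus level went together, since 7 of the 10 libraries above were EE and 9 of the 12 below were SH. Within the 12, Gria2 was at 902 to 1089 CPM (median 962) in 9 SH libraries and at 898, 914 and 976 CPM in the EE libraries 35A, 31B and 9. Within the 10, it was at 778, 810 and 901 CPM in the SH libraries 12, 2 and 11 and at 825 to 907 CPM (median 857) in 7 EE libraries. The EE libraries thus had the lower median on one side and the higher on the other. With the choroid plexus score as a covariate, the log2 fold change of Gria2 averaged over genotypes was -0.01 ± 0.05 (adjusted p = 0.937), compared with -0.10 without it. Because the score and housing went together in these libraries, this fit cannot tell them apart, and the cause of the difference was not tested.

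**Figure D4:**
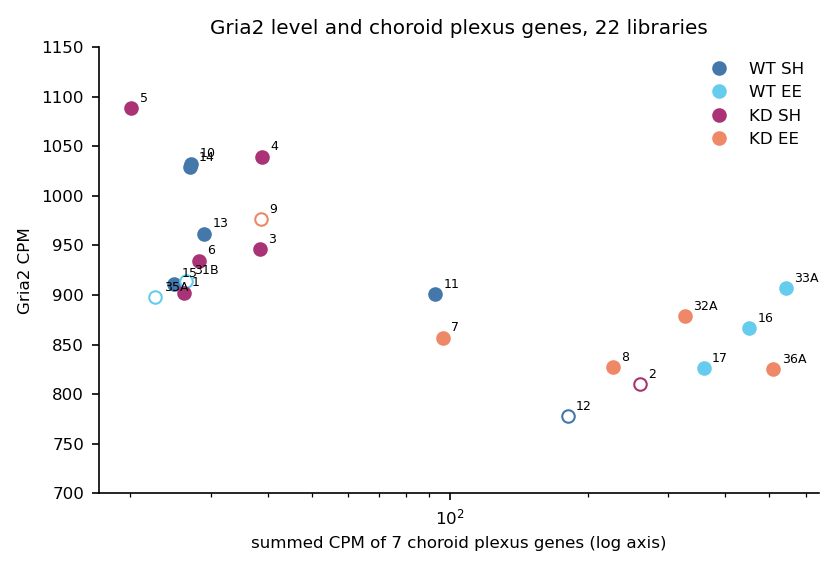
Gria2 level in CPM (the axis does not start at 0) against the summed CPM of 7 choroid plexus genes (log axis) in 22 libraries, coloured by group and named by library. Open points are the libraries left out by the study. The 12 libraries on the left lie between 898 and 1089 CPM of Gria2, and the 10 on the right between 778 and 907.

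Library 5 of KD SH stood apart from its group in the balance of the subunits. Its ratio of Gria1 to Gria2, per kilobase of exon, was 1.93, compared with 2.70 to 3.08 in the other 5 KD SH libraries and 2.67 to 3.18 in the other 3 groups. Gria2 made up 28.3% of the summed per-length level of the 4 subunits in it, compared with 20.9% to 23.5% in the other 21 libraries. Of the 9 genes, 4 were lowest and 4 highest of their group in library 5. Its dentate granule cell, CA1 and CA3 markers were also the lowest of the 22, at 186, 570 and 112 CPM in sum. Its sums for thalamic (161 CPM), oligodendrocyte (5879 CPM) and general neuronal genes (6155 CPM) were each exceeded only by a WT SH library. The cerebellar granule cell sum, 2.05 CPM, was the highest of the 22. Not all genes of neighbouring tissue were high in it. Its striatal sum, 92.5 CPM, lay within the range of the other libraries, and its choroid plexus sum, 20.1 CPM, was the lowest of the 22. The part of these markers in its subunit levels was not tested.

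Without library 5, the mean Gria1 to Gria2 ratio per kilobase of exon was 2.87 in KD SH, beside 2.92 ± 0.185 (SD, n = 6) in WT SH, 3.03 ± 0.125 (n = 5) in WT EE and 2.89 ± 0.0877 (n = 5) in KD EE. With it, the KD SH mean was 2.71 ± 0.413 (n = 6). The share of Gria2 among the subunits was 22.1% ± 0.985 in WT SH, 21.6% ± 0.610 in WT EE, 23.4% ± 2.48 in KD SH and 22.2% ± 0.672 in KD EE. The groups overlapped in both measures. Per kilobase of coding sequence the group means were 40.3% to 42.7%, with WT EE again lowest and KD SH highest, while WT SH and KD EE changed order.

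**Figure D5:**
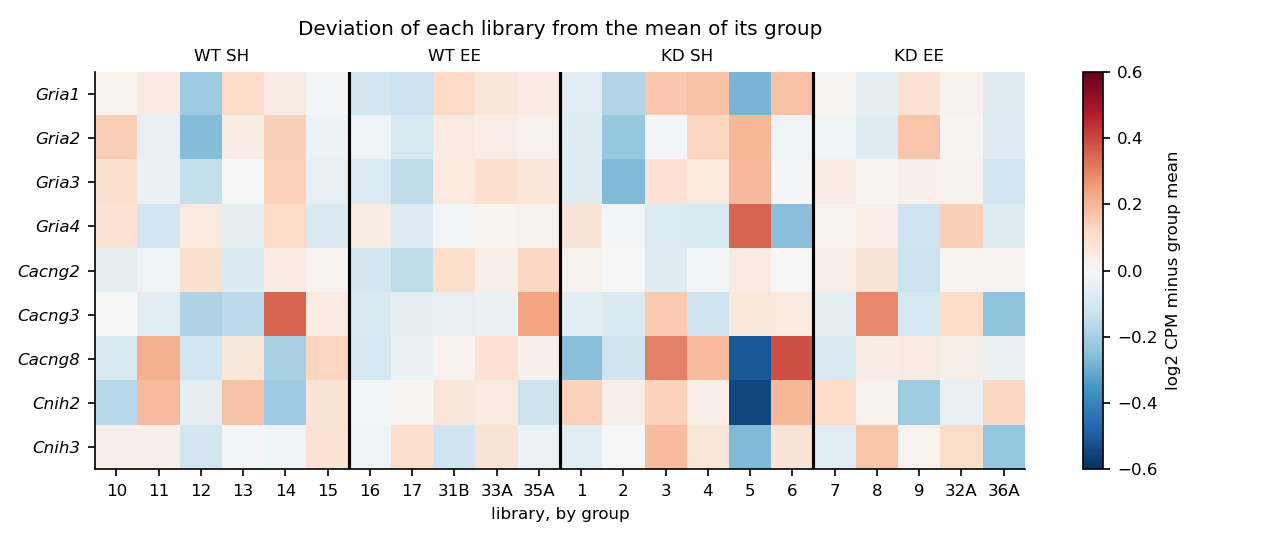
Deviation of log2 CPM from the group mean for each gene (rows) and library (columns), with black lines between groups. Library 5 of KD SH carries the strongest colours, below its group for Cacng8 and Cnih2 and above it for Gria4, and library 14 of WT SH is highest for Cacng3.

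The members did not vary as a single block. Over the 22 libraries, which share dissection and scaling, Gria2 and Gria3 were the closest pair, with a Pearson r of log2 CPM of 0.84 (0.80 without library 5). Gria1 went with them only once library 5 was left out (r with Gria2 of 0.37, and 0.80 without). Gria1 and Cacng8 had an r of 0.77 (0.67 without library 5), whereas Gria4 and Cacng8 went opposite ways, at -0.75 (-0.53 without). Cacng2 had an r between -0.41 and 0.34 with each of the other members.

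The members also followed different marker scores, though the subunits did so less without library 5. Gria3 and Gria2 went with the general neuronal genes (r of 0.87 and 0.79 over 22 libraries). Gria1 went with the genes of dentate granule cells (0.81) and of CA1 pyramidal cells (0.76), and Cacng8 with those of CA1 (0.84, and 0.73 without library 5). Without library 5, the r with the dentate markers rose from 0.05 to 0.61 for Gria2 and from 0.00 to 0.49 for Gria3. That of Gria1 with the neuronal genes rose from 0.37 to 0.66. Gria4 went against the CA1 markers (-0.71, and -0.52 without library 5). These scores and the members come from the same libraries, and whether the markers account for the levels was not tested.

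The genes most like each member were found by Pearson r of log2 CPM among the other 18481 genes tested. For Gria1 the closest was Prkce, the epsilon isoform of protein kinase C (r of 0.93), followed by Ptk2b and Fam13c. For Gria2 it was Dmd (0.90), which encodes dystrophin, followed by Arid4b and Plcb1, and for Gria3 it was Reps2 (0.90), followed by Trim44 and Dmd. For Gria4 it was Nudt4 (0.94), followed by Dpp10 and Evi5. Cacng8 was closest to Cers1 (0.94), Nisch and Grin1, the obligatory NMDA receptor subunit (0.94). Cnih2 was closest to Plppr2 (0.90), Ubald1 and Lrrtm1, Cnih3 to Crmp1 (0.84), Dennd1a and Lrfn3, Cacng2 to RP23-3F1.8 (0.79), Atxn1 and Lifr, and Cacng3 to Kcna5 (0.77), Stau1 and Arpp21. The r of the closest gene was thus lowest for Cacng3 over the 22 libraries. Without library 5, the r with these same genes was 0.783 for Cacng3, 0.780 for Cacng2 and 0.762 for Cnih3.

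A further 41 genes that act on AMPA receptors, or belong to the related kainate receptors, were listed and all were tested. None was called in any of the 4 comparisons or the interaction over 22 libraries, where 0% of all genes tested were called, so the count says nothing particular to the 41. Among 11 other auxiliary proteins, 3 had an unadjusted p under 0.05 in WT EE against WT SH, which 8.65% of all genes had, and the values of all 3 were negative. These were the TARPs Cacng4 (log2 fold change -0.21 ± 0.08, adjusted p = 0.451) and Cacng5 (-0.47 ± 0.16, adjusted p = 0.411) and Shisa9 (-0.18 ± 0.08, adjusted p = 0.508), which encodes a further receptor partner.

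Of 7 extracellular partners, Nptx2, an activity-regulated pentraxin that gathers AMPA receptors at synapses, had the highest fold change of all 41 in both genotypes. Its level was 22.2 ± 3.36 CPM (SD, n = 6) in WT SH and 31.1 ± 7.38 (n = 5) in WT EE, and 19.6 ± 2.94 (n = 6) in KD SH and 26.7 ± 9.12 (n = 5) in KD EE. The log2 fold change was 0.49 ± 0.17 in WT (adjusted p = 0.411) and 0.47 ± 0.17 in KD (adjusted p = 0.467), and 0.48 ± 0.12 averaged over genotypes (adjusted p = 0.0598), none of them called. The EE and SH libraries overlapped in both genotypes.

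Of 9 trafficking and anchoring genes, Epb41l2, which encodes a membrane skeleton protein, had an unadjusted p under 0.05 in WT EE against WT SH, as 8.65% of all genes did. Its value was -0.19 ± 0.06 (adjusted p = 0.399). In WT SH against KD SH, Cacng4 (0.18 ± 0.08) and the pentraxin receptor gene Nptxr (0.17 ± 0.08) were the only 2 of the 41 below that threshold. Both had an adjusted p of 0.811, and 5.76% of all genes passed the unadjusted threshold there. The 6 assembly and export genes, the 3 editing enzyme genes and the 5 kainate receptor genes had 0 members at an unadjusted p under 0.05 in the 4 comparisons and the interaction, where 2.04% to 9.63% of all genes had one. Averaged over housings, 1 editing gene, Adarb2, did in WT against KD. Of all 41 genes, 2 were higher and 1 lower at that threshold in this contrast, where 6.06% of all genes passed it. In EE against SH averaged over genotypes, 1 of the 41 was higher and 6 were lower at it, where 16.1% of all genes passed. Over all 41, the median log2 fold change was -0.04 in WT EE against WT SH and 0.00 in KD EE against KD SH, beside 0.01 and 0.00 over all genes tested.

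The genes with a low p were not the same in the 17 libraries, where again none of the 41 was called. In WT EE against WT SH, 6 of the 41 had an unadjusted p under 0.05, where 13.7% of all genes had, and all 6 had negative values. Shisa9 (-0.25 ± 0.09) and Epb41l2 (-0.21 ± 0.07) were among them as in the 22 libraries. The other 4, named after their values were seen, were Shisa6 (-0.28 ± 0.10), the export gene Frrs1l (-0.22 ± 0.08) and the kainate receptor subunits Grik2 (-0.22 ± 0.08) and Grik3 (-0.25 ± 0.10), with adjusted p of 0.127 to 0.241 by edgeR. Cacng4 (-0.13 ± 0.08), Cacng5 (-0.30 ± 0.15) and Nptx2 (0.35 ± 0.19) were no longer past that threshold. In KD EE against KD SH, Nptx2 was at 0.52 ± 0.18 (adjusted p = 0.207) and was the only one of the 41 past it, where 11.3% of all genes were. In WT SH against KD SH, 2 of the 41 passed it, where 4.95% of all genes did, Cacng4 at 0.17 ± 0.07 and Cacng5 at 0.36 ± 0.13 (both with an adjusted p of 0.881).

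Rps6ka5, which encodes MSK1, was at 24.9 ± 2.25 CPM (SD, n = 6) in WT SH, 21.4 ± 1.94 (n = 5) in WT EE, 25.5 ± 2.14 (n = 6) in KD SH and 23.5 ± 3.32 (n = 5) in KD EE. Its log2 fold change in WT EE against WT SH was -0.22 ± 0.09 (adjusted p = 0.448). The KD mutation changes the protein's kinase domain and its mRNA level is no check of the genotype. MSK1 phosphorylates CREB, a factor that binds cAMP response elements. In the 300-base promoter windows of RefSeq (GRCm38.p6), which held 7 of the 9 genes and not Gria1 or Gria3, neither TGACGTCA nor the shorter TGACG contained in it was found on either strand. These letters were in 1.79% and 20.8% of 32851 promoters, and their absence from these windows says nothing of the factor. The windows of Cacng2 (chr15:78119231-78119530), Cacng3 (chr7:122671494-122671793) and Cacng8 (chr7:3393792-3394091) lie inside the genes as placed by GENCODE M21, away from their starts.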

How the data were processed

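The authors made the deposited counts from paired-end, poly-A selected libraries by trimming with Skewer, aligning to GRCm38 with STAR 2.5 and counting uniquely aligned fragments on Ensembl genes, unstranded, with HTSeq. The deposited values are raw counts per gene and library. A further table of scaled values for 17 libraries was not used. Between 14.0% and 18.6% of the counted fragments of the 22 libraries fell in no gene or in several and were left out. Libraries 33B and 34B failed the study's quality control and were left out. No pair of the 24 libraries was identical. Mice were caged in groups in both housings, and the labels do not say which mice shared a litter or cage. The tests treated each library as independent, which libraries of cage mates or litter mates would not be. The floor of 3 counts covers counting error only, since reads carried no molecular identifiers.

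Genes were filtered with filterByExpr by group, scaled by TMM and fitted in 1 quasi-likelihood model of the 4 group means with edgeR 4.0.16 in R 4.3.3, with Benjamini-Hochberg adjustment across the 18482 genes tested. Intervals of fold changes are 95% confidence intervals from the model. The fit was tested on simulated counts with known fold changes in WT EE against WT SH, and the other comparisons and steps were not. Marker scores are mean log2 CPM with a prior count of 2. Lengths are those of GENCODE M21. The 9 genes and the lists were chosen with earlier results of these data known. Named genes outside the 9 were those of the pathway lists with the lowest p, at most 6 in each comparison, and the 3 most like each member. Exon bases shared with another gene make a count uncertain. Small RNA genes on the same strand share 111 bases of Gria2, 85 of Gria3, 19 of Gria4 and 91 of Cacng8. A730060N03Rik shares 323 bases antisense to Cacng2 and Yif1a 14 antisense to Cnih2, which unstranded counting cannot tell apart. Alternatives used DESeq2 1.42.0 and limma 3.58.1, other filters, other sets of libraries and the choroid plexus score as a covariate. The split at 50 CPM of choroid plexus genes, the fits without library 5 as a named alternative and the adjusted p alone in the 17 libraries were chosen after seeing the data.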

Additional observations from a re-analysis of the deposited data

Results flagged for a closer look

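Of 44 sets of values tested for a library far from its group (9 genes, the Gria1 to Gria2 ratio and the Gria2 share, in 4 groups), 5 held one, and chance flags about 1 in 20. The sets were not independent, since the ratio and the share were computed from the Gria levels, so that rate is only a guide. Library 5 of KD SH accounted for 3 of the 5 flags. Its Cnih2 level was 240 CPM, with the nearest KD SH library at 359 CPM. Its per-length Gria1 to Gria2 ratio was 1.93, with the nearest at 2.70, and its per-length Gria2 share was 28.3%, with the nearest at 23.2%. Gria3 in library 36A of KD EE was 206 CPM, with the nearest at 224 CPM. Cacng3 in library 35A of WT EE was 82.1 CPM, with the nearest at 67.8 CPM.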

How the results depend on the processing

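No paired analysis was possible because the library codes are not shared between groups. The number of the 9 genes called stayed at 0 in each comparison under all alternatives run on the 22, 24 or 17 libraries, and each library left out in turn (0 to 0 in 22 fits), with 1 exception. With the 17 libraries and the adjusted p alone, 1 gene, Gria2, passed in EE against SH averaged over genotypes, where its log2 fold change was -0.18. Of the fold changes of the 9 genes, 163 values under an alternative had another sign than the main value, none of them called. Gene counts over all genes depended on the libraries, with 0 called in WT EE against WT SH in the 22 and 664 in the 17. In the 24 libraries, the means of KD EE include 34B, with 16442 counts. The smallest count behind any of the 9 genes in the 22 libraries was 555.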

Other observations

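Library 33B of WT EE, which failed quality control, held 18667300 counts on genes, with Gria1 at 763 and Gria2 at 648 CPM of its unscaled total. Library 34B of KD EE held 16442 counts on genes, of which 22 were on Gria1, 23 on Gria2, 3 on Gria3 and 0 on Cacng2. A floor of 3 counts stands for 182 CPM in it, so that most of the 9 genes were not detectable at their usual level.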
